A study of Mus musculus with 6 samples.

Results

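The probes for 5 genes of glucose entry and insulin sensing were examined: the glucose transporters Slc2a1, Slc2a2 and Slc2a4, the hexokinase Hk1 and the insulin receptor Insr. They were chosen by the gene symbols of the platform's annotation, with 1 probe per gene, out of 202 named genes on an array of 223 probes. The tissue was soleus, a slow postural calf muscle, of tenascin-C (Tnc) deficient 129/SV mice examined 1 day after reloading, when weight bearing had been restored to a muscle relieved of it. By their labels all 6 samples, 1 array each and called biological replicates, carried the deletion and the reloading, and the labels used here state no age. Wild-type or unloaded muscle was not analysed here, so no value below is an effect of genotype or of loading.

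Glucose enters muscle fibres by facilitated diffusion through transporters of the Slc2a family. Slc2a4 (GLUT4) is the insulin- and contraction-responsive form of muscle and fat, held in intracellular vesicles until it is called to the membrane. Slc2a1 (GLUT1) is a basal transporter found in most cells and abundant in endothelium. Slc2a2 (GLUT2) is the low-affinity transporter of liver and pancreatic beta cells and is not regarded as a muscle transporter. Hexokinases trap glucose in the cell by phosphorylation; Hk1 is the widely expressed form. Insr is the receptor tyrosine kinase through which insulin recruits Slc2a4.

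The deposited intensities are relative values, and each was read against the lowest intensity of its own array, because signal near that level cannot be told from background. That lowest intensity ran from 0.0006 to 0.003 and the median probe stood between 1.2 and 1.83 times above it. Of the summed signal of 221 probes, this floor accounted for 66.6% on arrays 1 and 2, against 13.3% to 39.9% on arrays 3 to 6, so arrays 1 and 2 left little range for any gene. Probes 1M and 1O, which are not part of that sum, gave 40.5 or more together on arrays 1 and 2 and at most 3.21 on the others. Values carry 4 decimals, and 1 unit in the last place was 3.33% of the lowest intensity on arrays 1 and 2 and 16.7% on array 6. All 7 soleus fibre markers with a probe, Myh7 and Mb (myoglobin) among them, stood at 2 times that floor or more on every array from 3 to 6. That level was reached there by 30 of all 221 probes (13.6%). The probe for the deleted gene, Tnc, lay at 4.07 and 4.5 times the floor on arrays 1 and 2, ranks 6 and 7 of 221, and between 1.11 and 2.78 times on arrays 3 to 6; its place in the gene is unknown here, so it does not check the genotype.

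Among the 5 genes, Slc2a4 gave the clearest signal. Its intensities were 0.0035, 0.0035, 0.0035, 0.0041, 0.0051 and 0.0037 on arrays 1 to 6. Set over the floor of its array, the probe gave 1.17, 1.17, 1.94, 4.56, 4.25 and 6.17 times. Slc2a4 thus lay close to the lowest probe on arrays 1 and 2, near 2 times it on array 3, and well clear of it on arrays 4, 5 and 6. The mean over arrays 3 to 6 was 4.23 ± 1.74 times (SD, n = 4). In rank, Slc2a4 stood between 25 and 39 of 221 probes on arrays 3 to 6, and at 131.5 and 142 on arrays 1 and 2.

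Slc2a2 gave intensities of 0.0033, 0.0038, 0.0022, 0.0016, 0.0025 and 0.0021 on arrays 1 to 6. The ratio to the lowest intensity was 1.1, 1.27, 1.22, 1.78, 2.08 and 3.5. Array 6 stood highest, and arrays 1, 2 and 3 stayed close to the lowest probe. The mean over arrays 3 to 6 was 2.15 ± 0.971 times (SD, n = 4). Of the other genes that mark liver or beta cells, 0 of the 8 listed had a probe, so the signal could not be set against them.

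Slc2a1 gave 0.0034, 0.0033, 0.0028, 0.0014, 0.0021 and 0.0011 on arrays 1 to 6. It lay 1.13, 1.1, 1.56, 1.56, 1.75 and 1.83 times above the lowest intensity, with a mean of 1.67 ± 0.141 on arrays 3 to 6 (SD, n = 4). It followed the middle of the array, above the median probe on 3 arrays, at it on 1 and below it on 2. The neuronal-type transporter Slc2a3, the fourth member of the family on the array, lay at 1.1, 1.07, 1.17, 1.22, 1.5 and 2.5 times.

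Hk1 gave 0.0033, 0.0032, 0.0022, 0.0013, 0.0015 and 0.0009, or 1.1, 1.07, 1.22, 1.44, 1.25 and 1.5 times the lowest intensity. Insr gave 0.0031, 0.003, 0.0021, 0.0011, 0.0015 and 0.0009, or 1.03, 1.0, 1.17, 1.22, 1.25 and 1.5 times. Hk1 never lay above the median probe of an array, being at it on 2 arrays and below it on 4, and Insr lay below it on all 6. On array 2 the Insr probe was itself at the lowest intensity. Neither probe gave a signal that could be separated from background, which is not evidence that the transcripts were absent.

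**Figure D1:**
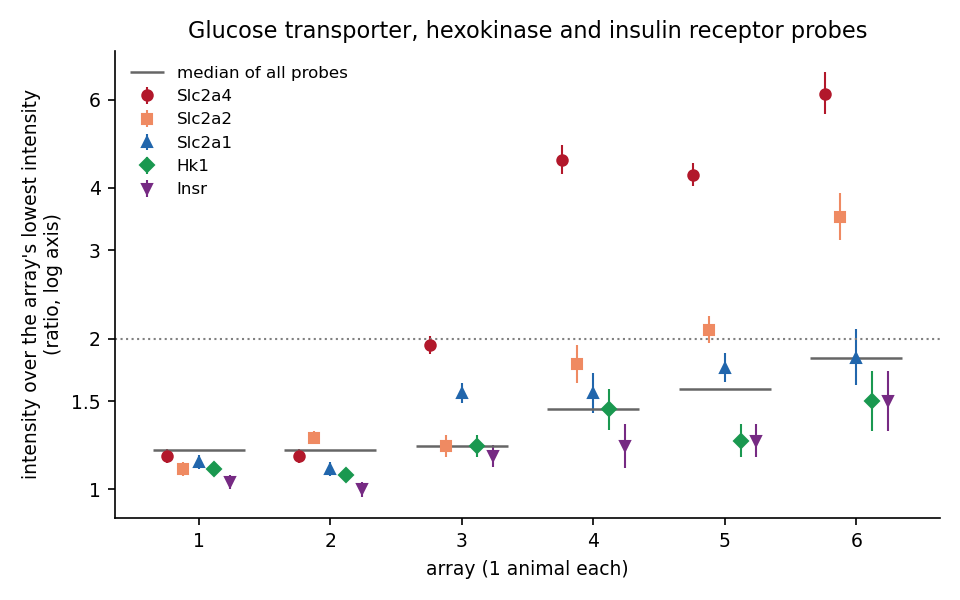
Intensity over the lowest intensity of the array (vertical axis, ratio on a log scale) for the 5 genes on each of the 6 arrays (horizontal axis). Vertical bars are the range that rounding to 4 decimals allows, grey bars the median of 221 probes, and the dotted line 2 times the lowest intensity; Slc2a4 reaches 6.17 on array 6, and Hk1 and Insr stay at 1.5 or below.

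A level of 2 times the lowest intensity was used as a mark of clear signal. On each of arrays 3 to 6 it was reached by 0 of the 5 genes, against 30 of 221 probes (13.6%). Slc2a4 missed it through array 3 alone, where rounding allows 1.86 to 2.03 times; without array 3 it passed, as did 21.3% of all probes. On single arrays, 29% of all probes reached 2 times on array 4, where Slc2a4 alone of the 5 passed, and 34.8% on array 5 and 47.1% on array 6, where Slc2a4 and Slc2a2 did. For Slc2a2 this was so on arrays 5 and 6, although rounding allows 1.96 to 2.22 times on array 5. Slc2a1 passed on no array; on array 6 rounding allows 1.62 to 2.09 times. Hk1, Insr and Slc2a1 were 3 of the 106 probes (48.0% of all) that stayed under 2 times on all of arrays 3 to 6. At 1.5 times the lowest intensity 2 of the 5, Slc2a4 and Slc2a1, passed on each of arrays 3 to 6, against 26.2% of probes. With 5 genes, none of these counts was read as setting them apart from the array as a whole.

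The transporters were then compared within each array, which removes a common multiplier but not an added background. Probes differ in length, label uptake and hybridisation, so these are differences of spot signal and not of transcript amount. Slc2a4 was above Slc2a1 on 6 of 6 arrays, by 1.03, 1.06 and 1.25 times on arrays 1, 2 and 3 and by 2.93, 2.43 and 3.36 times on arrays 4, 5 and 6. On array 1 the difference was 1 unit of the last decimal, within rounding. The mean log2 difference was 0.84 ± 0.77 (SD, n = 6; exact two-sided sign-flip permutation p = 0.0312, the smallest that 6 arrays allow). That p requires the same sign on all 6 arrays, so it hangs on array 1, where the order lay within rounding. Adjusted over the 3 pairs the permutation p was 0.0938, which did not pass 0.05. Both probes lay near the floor on arrays 1 and 2 and Slc2a1 reached 2 times it on no array, so the size of this difference depends on background: with the floor subtracted the mean was 1.54.

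Slc2a4 was above Slc2a2 on 5 of 6 arrays, by 1.06, 1.59, 2.56, 2.04 and 1.76 times on arrays 1, 3, 4, 5 and 6. On array 2 the order was turned, with 0.0035 for Slc2a4 and 0.0038 for Slc2a2. The mean log2 difference was 0.64 ± 0.56 (SD, n = 6; exact permutation p = 0.0938, adjusted 0.141). On arrays 3 to 6 alone it was 0.97 ± 0.30 (SD, n = 4), with Slc2a4 higher on 4 of 4. Arrays 1 and 2 alone gave a mean of −0.017. Slc2a2 and Slc2a1 kept no fixed order: Slc2a2 was higher on 4 arrays, lower on array 3, and within rounding of Slc2a1 on array 1, with a mean log2 difference of 0.20 ± 0.42 (SD, n = 6; exact permutation p = 0.312, adjusted 0.312). That difference was largest on array 6, at 0.93, and without it the mean was 0.051.

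**Figure D2:**
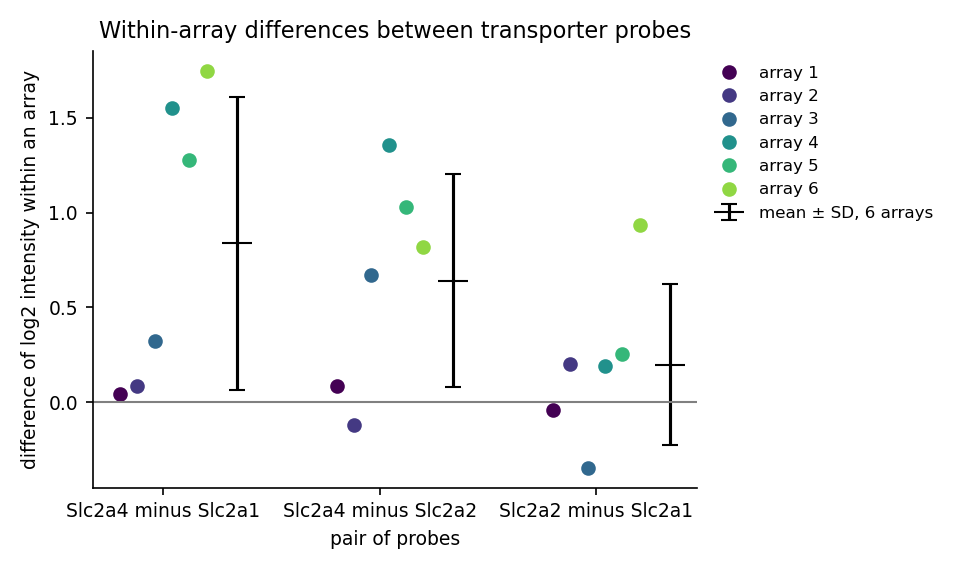
Difference of log2 intensity (vertical axis) within each array for the 3 pairs of transporter probes (horizontal axis); circles are arrays and the black mark is the mean with its SD over 6 arrays. Slc2a4 lies above Slc2a1 on 6 of 6 arrays, with arrays 4, 5 and 6 far above arrays 1 and 2.

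By mean log2 spot intensity, background included, the order over the 6 arrays was Slc2a4 at −8.02 ± 0.22, Slc2a2 at −8.66 ± 0.46, Slc2a1 at −8.85 ± 0.68, Hk1 at −9.07 ± 0.75 and Insr at −9.16 ± 0.74 (SD, n = 6). Slc2a1 exceeded Hk1 by 1 to 6 units of the last decimal, and by more than the 1 unit that rounding can give on 3 of 6 arrays (mean log2 difference 0.22 ± 0.18, SD, n = 6). Hk1 exceeded Insr by 0 to 2 units and equalled it on 2 arrays (0.08 ± 0.09, SD, n = 6). For Slc2a2 against Slc2a1 and for Hk1 against Insr the spread between arrays exceeded the difference. Hk1 and Insr lay near background, so their place at the end of this order says nothing of their transcripts.

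Slc2a4 differed from the other 4 genes in how its deposited intensity ran across arrays. The lowest and the median intensity fell steeply from arrays 1 and 2 to array 6, and Slc2a1, Slc2a2, Hk1 and Insr stood at 0.324, 0.636, 0.273 and 0.29 of their array 1 value on array 6. For Slc2a4 that ratio was 1.06, against a median of 0.286 over 221 probes. Intensities were lower on array 6 than on array 1 for 4 of the 5 genes and for 86.0% of all probes. Slc2a4 was not alone among the other probes: Pdha1, a pyruvate dehydrogenase subunit, gave 0.0035 on array 1 and 0.005 on array 6. As a share of the summed signal left after the lowest intensity was subtracted, Slc2a4 made up 0.15% on arrays 1 and 2 and 0.283%, 0.4%, 0.532% and 0.358% on arrays 3 to 6. On those 4 arrays Slc2a1 made up between 0.0577% and 0.167%, Slc2a2 between 0.0666% and 0.177%, Hk1 between 0.0346% and 0.0666% and Insr between 0.025% and 0.05%.

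**Figure D3:**
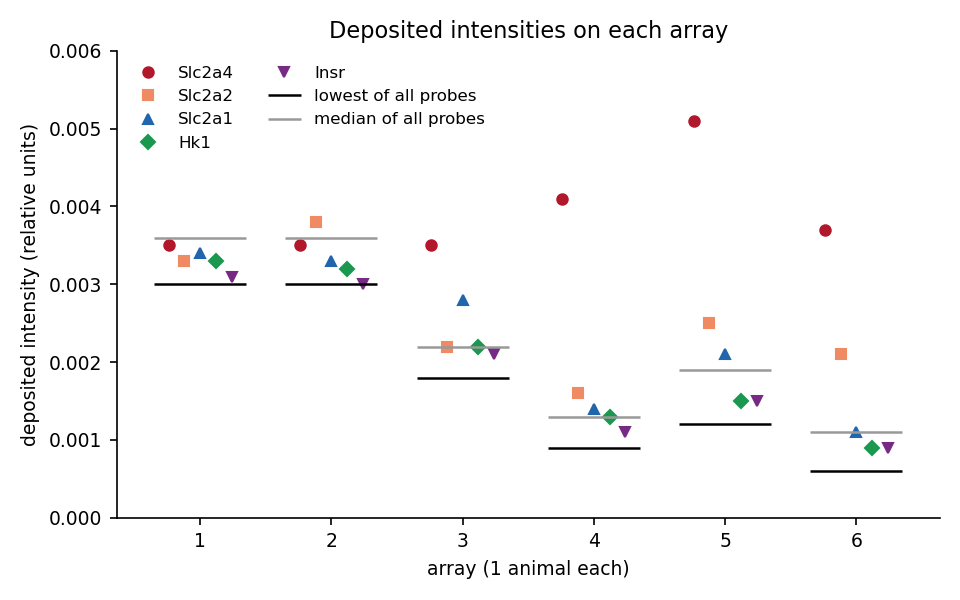
Deposited intensity (vertical axis, relative units, from 0) of the 5 genes on each array (horizontal axis), with black bars for the lowest and grey bars for the median of 221 probes. Slc2a4 stays between 0.0035 and 0.0051 while the lowest intensity goes from 0.003 on arrays 1 and 2 to 0.0006 on array 6.

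The variance between arrays was set against that of probes with like signal in limma's variance test. Of 197 probes above the lowest intensity on all 6 arrays, 4 varied more than such probes (2.03%; 14, or 7.11%, had an unadjusted p under 0.05). The 4 members tested were not among them at either level: Slc2a1 gave an adjusted p of 0.874, Slc2a2 of 0.902, Slc2a4 of 0.998 and Hk1 of 0.874. Insr did not enter, being at the lowest intensity on array 2. Only 2 of the 197 probes had a smaller SD than Slc2a4, whose 0.22 fell to 0.099 without array 5. With the median of each array subtracted, the SD of Slc2a4 became 0.82, and 162 probes had a smaller SD, against centred SDs of 0.17 for Slc2a1, 0.38 for Slc2a2, 0.14 for Hk1 and 0.29 for the median probe. After quantile normalization the SD of Slc2a4 was 0.63 and after cyclic loess 0.19, so it depended on the scaling. The near-constant intensity of Slc2a4 therefore does not show whether its transcript was stable. Since each animal had a single array, variation of the animals and of the arrays cannot be told apart.

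The probes whose course over arrays was most like that of each gene were found from log2 values over the lowest intensity, with each probe's mean removed, by the root mean square difference over the 6 arrays. For Slc2a4 they were Pdha1 (a pyruvate dehydrogenase subunit, 0.21), Cox8a (a cytochrome c oxidase subunit, 0.21) and Acadl (long-chain acyl-CoA dehydrogenase, 0.23), where the median of 181 named probes was 0.81. Pdha1 ran at 1.17, 1.1, 2.61, 5.33, 4.25 and 8.33 times the floor of arrays 1 to 6, and like Slc2a4 it was highest on array 6 and higher on array 4 than on array 5. For Slc2a2 the nearest were Srf (0.11), Cd34 (0.14) and Rb1 (0.19), against a median of 0.50. For Slc2a1 they were Ldha (0.08), Ccnd1 (0.11) and Mmp14 (0.11), against 0.33, and for Hk1 Top3b (0.06), Igfbp3 (0.06) and Ccnd1 (0.07), against 0.29. All of these share the arrays' lowest intensities, and those near Slc2a1 and Hk1 stayed at or below 1.67 times on every array. Insr could not be placed this way.

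Several other probes of glucose use stood further above the lowest intensity than the 5 examined here. Of 43 listed glucose and glycogen genes 9 had a probe. Of these, 6 were at 2 times the floor or more on every array from 3 to 6, against 30 of all 221 probes (13.6%). The median was 5.13 times over the 9, 1.67 over the 5 genes and 1.58 over all 221 probes. The 6 were Aldoa, Gapdh, Pgk1, Eno2, Ldhb and Pdha1, enzymes that act downstream of glucose phosphorylation. Pgk1 at 4.59 ± 1.92 and Eno2 at 4.58 ± 0.974 times lay close to Slc2a4 at 4.23 ± 1.74 (SD, n = 4). Aldoc, the brain-type aldolase, passed on 3 of the 4 arrays, Slc2a3 on 1 and Ldha, which makes lactate from pyruvate, on 0. No probe was annotated to Hk2, the main hexokinase of muscle, so the phosphorylation step is seen here through Hk1 only. Differences between probes in these values are of spot signal only.

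Of 34 listed genes of insulin signalling and its targets 7 had a probe, and none of the listed kinases downstream of the receptor did. Igf1r, the insulin-like growth factor receptor and closest relative of Insr on the array, lay between 1.07 and 1.25 times the lowest intensity on all 6 arrays and, like Insr, reached 2 times on none. Mef2c, a transcription factor of muscle, passed on each of arrays 3 to 6 at 6.77 ± 2.53 times (SD, n = 4). Its relative Mef2a did so on none, at 1.43 ± 0.292 times. Mef2 factors are known to drive transcription of Slc2a4. The ligand Igf2 also passed on each of the 4 arrays. For the ligand Igf1, 1 probe passed on 2 of them and the other on 3, and Ppara passed on 1. Of the 8 probes of this list 2 passed on all 4 arrays, 3 on some and 3 on none, against 30, 85 and 106 of 221 probes.

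**Figure D4:**
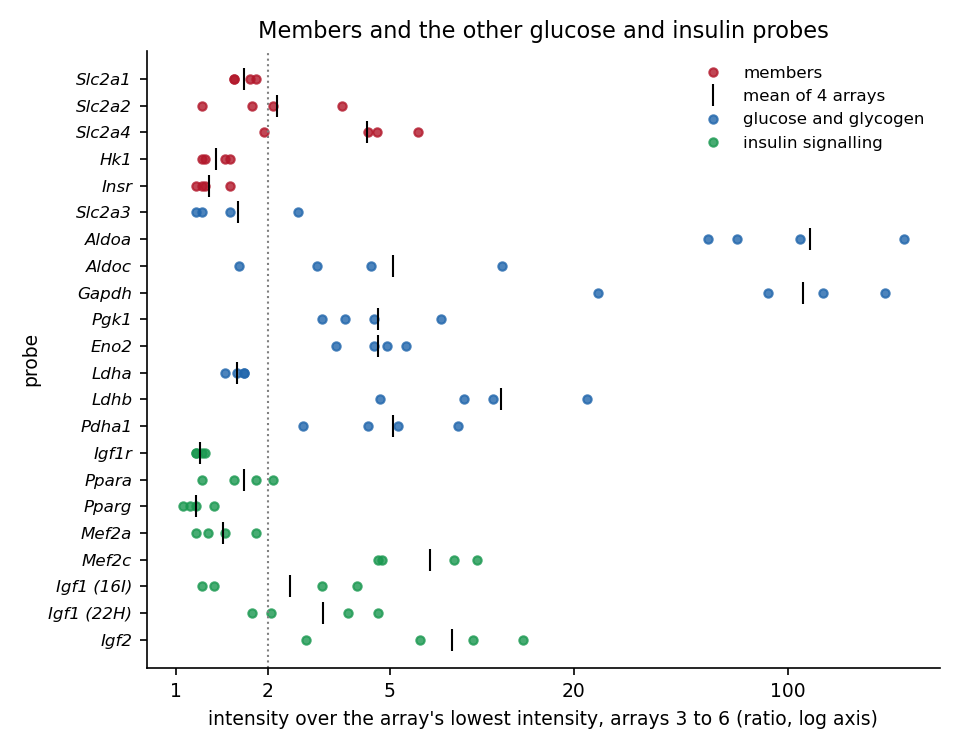
Intensity over the lowest intensity on arrays 3 to 6 (horizontal axis, ratio on a log scale) for the 5 genes in red, the 9 other glucose and glycogen probes in blue and the 8 insulin signalling probes in green (vertical axis). Points are arrays, black ticks their mean, and the dotted line 2 times the lowest; Slc2a4 overlaps Pgk1, Eno2 and Pdha1, and Insr lies beside Igf1r.

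Whole muscle also holds fat, vessels and blood, and in such samples fewer cells of a type and less RNA per cell cannot be told apart. Of 8 adipocyte markers 3 had a probe. Over the floor of arrays 3 to 6, Fabp4 lay at 2.11, 4.33, 7.42 and 8.33 times and Lpl at 2.22, 3.22, 3.33 and 5.67 times, while Pparg stayed between 1.06 and 1.33 times. Their summed signal above the lowest intensity ran from 0.0013 to 0.0109 over the 6 arrays and was highest on array 5. The intensity of Slc2a4 and the summed signals of the endothelial and insulin signalling probes were highest there too. Set over the floor, Slc2a4 was highest on array 6, at 6.17 times. The summed signal of the soleus fibre probes was 0.1721 on array 5, below arrays 3, 4 and 6 (0.2218, 0.2722 and 0.2265). Of 9 endothelial markers 6 had a probe, and their summed signal ran from 0.0031 to 0.0102. Pecam1 at 3.08 ± 1.61 and Cdh5 at 3.02 ± 1.87 times the lowest on arrays 3 to 6 (SD, n = 4) were the highest, and Tek, Flt1 and Nos3 did not reach 2 times. Of the erythrocyte list only Epor, the erythropoietin receptor, had a probe, and it stayed between 1.06 and 1.58 times. No listed globin gene had a probe, so the amount of blood was not measured. The part of fat, vessels and blood in the signals of Slc2a4 and Slc2a1 was not tested.

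The transporter probes lie side by side if the identifiers are read as grid positions, with the number as row and the letter as column (an assumption), in the order Slc2a1, Slc2a3, Slc2a4 and Slc2a2, followed by Hadh, an enzyme of fatty acid oxidation. On array 6, where Slc2a2 was highest at 3.5 times, its neighbours at 1 step were Slc2a4 at 6.17, Hadh at 5.67, Pgk1 at 7.33 and an unnamed probe at 2.0 times the lowest intensity. On arrays 4 and 5, where Slc2a2 gave 1.78 and 2.08 times, Slc2a4 gave 4.56 and 4.25 and Pgk1 4.44 and 3.58 times. Of the other spots beside Slc2a4, Acadl reached 4.83 times on array 6, while Pdha2, a testis form of the pyruvate dehydrogenase subunit, stayed between 1.07 and 1.17 times on all 6 arrays. Slc2a3 lay between 1.07 and 1.5 times on arrays 1 to 5 and at 2.5 times on array 6. On array 6 Slc2a1 lay at 1.83 times and its neighbours Cd36 and Fabp4 at 9.0 and 8.33 times. Slc2a2 and the 4 spots beside it were all at their highest over the floor on array 6. So was the median of all 221 probes, at 1.83 times, and 47.1% of all probes reached 2 times there. The part of neighbouring spots in the transporter signals was not tested.

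**Figure D5:**
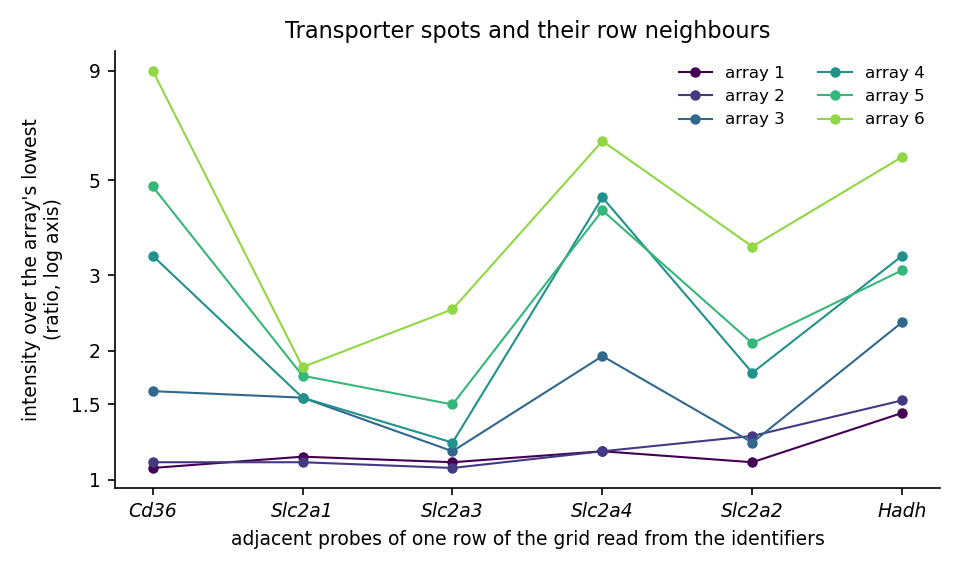
Intensity over the lowest intensity of the array (vertical axis, ratio on a log scale) for 6 adjacent probes of the row that holds the transporters (horizontal axis), with a line for each array. Slc2a4 forms a peak between Slc2a3 and Slc2a2 on arrays 3 to 6, and Slc2a1 and Slc2a3 lie below Cd36 on arrays 4 to 6.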

How the data were processed

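Total RNA from soleus belly sections was reverse transcribed with gene-specific primers and a radioactive nucleotide, 1 label per array, per the labels' protocols. The deposited table holds linear intensities; the authors appear to have scaled each array to the summed signal of its probes, a step read from the values. Image analysis, background treatment and probe sequences are not given in the sources used here. Arrays carry the numbers 1 to 6 in the order of the sample records. Of 223 probes, 205 were named through the platform's annotation and Entrez identifiers (204 in a GRCm38.p6 gene table, all 5 members among them); no coordinates are given, since the probes' build is unknown. Probes 1M and 1O lie outside the scaling and were left out.

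Members and lists were chosen with earlier results of these data known. By rule the text names the 5 members, the 3 nearest probes to each, list genes with a probe, and grid neighbours. Within-array log2 differences were tested with exact sign-flip permutations and Benjamini-Hochberg adjustment over 3 pairs. The variance between arrays was tested with limma 3.58.1 (squeezeVar, robust, trend on mean log2 intensity; upper-tail F test; Benjamini-Hochberg over all probes tested at 0.05), checked on simulated data. Alternatives were subtraction of the lowest intensity, quantile normalization, median-centring, cyclic loess, a pseudocount of 0.0006, other filters and thresholds, array subsets and leaving out each array; arrays 3 to 6 with subtraction or centring were added after the data were seen. The number of arrays limits the precision.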

Additional observations from a re-analysis of the deposited data

How the results depend on the processing

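The mean difference Slc2a4 minus Slc2a1 kept its sign under all 13 alternatives. Since Slc2a4 was above Slc2a1 on every array, none of these but cyclic loess could have turned that sign. Slc2a4 minus Slc2a2 kept its sign under all but arrays 1 and 2 alone, where it was −0.017 (log2). After cyclic loess both passed the threshold, at 0.95 and 0.69 (exact permutation, adjusted p = 0.0469, n = 6). For Slc2a4 minus Slc2a2 the unadjusted permutation p of 0.0312 requires the same sign on all 6 arrays. Cyclic loess therefore turned the order of array 2, where the deposited values were 0.0035 for Slc2a4 and 0.0038 for Slc2a2. The cause of this change was not tested. Elsewhere no transporter difference passed, and with 5 or 4 arrays the exact test cannot go below 0.0625 or 0.125. Without single arrays the means ran from 0.66 to 1.00 for Slc2a4 minus Slc2a1, from 0.50 to 0.79 for Slc2a4 minus Slc2a2 and from 0.051 to 0.31 for Slc2a2 minus Slc2a1. After subtraction of the lowest intensity they were 1.54, 1.16 and 0.38. The count of genes at the mark of clear signal on each of arrays 3 to 6, which was 0, became 2 at 1.5 times the lowest intensity (26.2% of all probes). Without single arrays it ran from 0 to 1, and 13.6% to 21.3% of all probes passed. The count was 0 at 3 times, over all 6 arrays and with the 5th percentile as background, where 9.5%, 2.26% and 13.1% of all probes passed. In limma's variance test 0 of the 5 genes passed under any of the 14 alternatives that tested them. Under these alternatives 0% to 3% of all probes tested passed, so the count does not set the 5 apart. Insr entered only 4 of the alternatives. No paired analysis was possible because all samples form 1 group. Signals within 1 unit of the last decimal of each other cannot be ordered, and on arrays 1 and 2 the narrow range over background limits every value.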
